A study of Gallus gallus with 12 samples.

Results

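The genes described here are 37 genes of mitosis, taken as the rows of the protein coding count table whose names are on a list of spindle, kinetochore, condensin and mitotic kinase genes. The table held 17485 protein coding genes, out of 24121 genes counted in all. All 37 passed the filter on low counts and were among the 16603 genes tested. Their levels were compared across 4 tissues of the chicken embryo, to ask how the transcripts of cell division stand as the Müllerian duct forms.

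The 4 tissues came from Hy-Line Brown chicken embryos at embryonic day (E) 4.5, 5.5 and 6.5, and each was sequenced as 3 libraries of poly(A) RNA made from pooled embryos, with the sexes not separated. E4.5-Ant was the anterior part of the paired urogenital system, which holds mesonephric kidney, some mesentery and the ridge where the duct is specified, so it is not duct alone. E5.5 duct and E6.5 duct were whole Müllerian ducts with their surface epithelium, mesenchyme and inner epithelium, and E4.5-Post was the posterior part of the urogenital system at E4.5, which holds mesonephros and mesentery without the ridge and served as the control. Both E4.5 tissues were taken from the same embryos, and which anterior pool matches which posterior pool is not given in the sources used here. For 1 E5.5 duct sample the labels disagree, since its cell type entry is that of the posterior kidney and its title and tissue entry are those of the duct, and it was kept as duct. The ducts differ from E4.5-Post both in age and in tissue, and these cannot be told apart in this design.

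Mitosis is driven by cyclin-dependent kinase 1 (CDK1) bound to A- and B-type cyclins, with Polo-like and Aurora kinases acting beside it. Kinetochores attach the condensed chromosomes to a microtubule spindle that kinesin motors build, a checkpoint delays anaphase until attachment is complete, and the cleavage furrow then parts the daughter cells. Most of these transcripts accumulate in late S, G2 and M phase and are low in resting cells, so in whole tissue they are widely used as a readout of cycling cells. In bulk RNA, fewer cycling cells and less RNA of these genes per cell cannot be told apart.

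The libraries held 24235353 to 31373783 counted reads, and the 37 genes had between 805 and 19573 reads each in any library. E4.5-Ant library 2 was left out of the tests because 42.1% of its reads lay on ribosomal RNA genes, against 0.199% to 1.95% in the other 11, which leaves 2 libraries in that tissue. E5.5 duct library 2 stood apart from its own group, at 30.9 and 37.8 in chi-square per degree of freedom against libraries 1 and 3, which differed from each other by 9.62. Marker genes followed the dissection in part. Duct mesenchyme markers summed to 5114 to 5348 CPM (read counts scaled to a common library size with TMM factors) in E6.5 duct. They summed to 2804 to 3535 CPM in E5.5 duct, against 1061 to 1101 CPM in E4.5-Post. Nephron markers summed to 1344 to 1733 CPM in E6.5 duct and 1803 to 2038 CPM in E5.5 duct, against 2916 to 3490 CPM. The nephron sum was thus lower in the ducts but not absent, and single nephron markers disagreed. Log2 fold changes of the 11 tested ranged over -3.79 to 0.36 in E5.5 duct and -5.90 to 1.16 in E6.5 duct relative to E4.5-Post. In E5.5 duct 5 of these nephron markers were called lower and 0 higher (all genes 6.26% and 14.3%). Müllerian duct and coelomic epithelium markers summed to 1112 to 1152 CPM in E6.5 duct and 801 to 886 CPM at E5.5. The E4.5-Post libraries had 861 to 918 CPM, so in this sum E5.5 duct was not above the control. Still, 7 of the 11 genes were called higher there and 1 lower (all genes 14.3% and 6.26%).

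The 37 genes together were lower in the 3 other tissues than in the posterior control. Their summed level was 5298 and 5554 CPM in E4.5-Ant, 4923, 4702 and 4707 CPM in E5.5 duct and 4895, 4587 and 4706 CPM in E6.5 duct, against 6333, 6841 and 6638 CPM in E4.5-Post. No library of the other tissues reached the lowest E4.5-Post library, and the E5.5 and E6.5 ranges overlapped each other. The library that was left out had 4899 CPM. E4.5-Post had the highest mean for 36 of the 37 genes, the exception being PBK. The means ran E4.5-Post, E4.5-Ant, E5.5 duct, E6.5 duct from high to low for 22 genes. For another 12 the ducts changed places at the low end. Shares of all genes with these patterns were not computed, so these counts cannot be set against them.

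**Figure D1:**
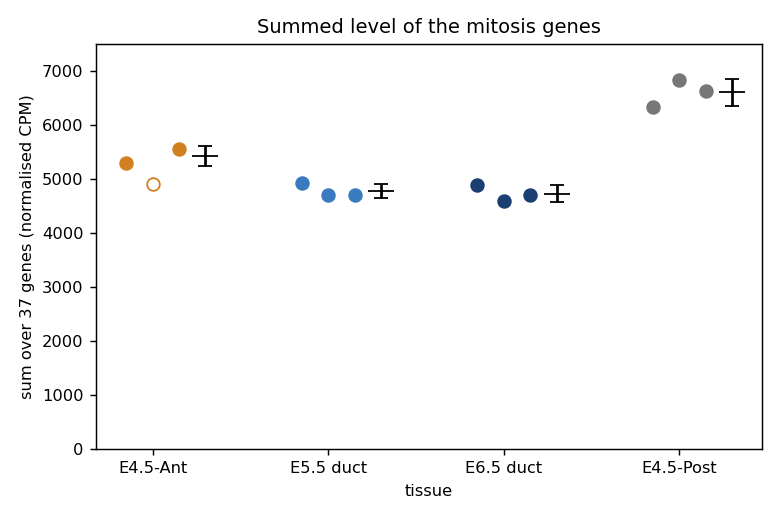
Sum of the normalised CPM of the 37 mitosis genes (y axis) in each library of the 4 tissues (x axis). Filled points are libraries in the tests, the open point is the E4.5-Ant library left out at 4899 CPM, and the black bars are the mean and SD of the filled points. The E4.5-Post libraries lie at 6333 to 6841 CPM, above all others.

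Differences were tested with edgeR's quasi-likelihood test over all 16603 genes, and a gene was called when its Benjamini-Hochberg adjusted p was at most 0.05 and its change at least 1.5-fold. Most changes of these genes were smaller than that fold, so counts at the adjusted p alone are given beside the calls. In E4.5-Ant relative to E4.5-Post, 0 of the 37 were called in either direction, where 7.7% of all genes were called higher and 3.05% lower. At the adjusted p alone 25 were lower and 0 higher, beside 14.8% and 14.2% of all genes, and at an unadjusted p of 0.05 it was 34 lower and 0 higher, beside 21.2% and 18.7% of all genes. In E5.5 duct relative to E4.5-Post, 10 genes were called lower and 0 higher (all genes 6.26% lower and 14.3% higher), and all 37 were lower at the adjusted p alone (all genes 26.5% lower and 27.3% higher). In E6.5 duct relative to E4.5-Post, 8 were called lower and 0 higher (all genes 8.78% lower and 16.5% higher), and 34 were lower and 0 higher at the adjusted p alone (all genes 28.2% lower and 29.7% higher).

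The median log2 fold change of the 37 genes was -0.26 in E4.5-Ant, -0.42 in E5.5 duct and -0.49 at E6.5, each relative to E4.5-Post, where the median over all genes tested was -0.02, 0.01 and 0.01. These comparisons share the control libraries, so they are not independent of each other. Altogether 12 genes were called in at least 1 comparison and 25 in none, 6 were called lower in both ducts (AURKA, KIF2C, CDC20, CCNA2, CDK1 and KIF23), and 23 were lower at the adjusted p alone in all 3 comparisons with E4.5-Post. The matching shares of all genes were not computed, so whether these joint counts are unusual cannot be said. Several calls lay at the fold limit: without E5.5 duct library 2 the E5.5 duct count was 6, and the other single libraries gave 8 to 12. For E6.5 duct the count was 7 to 12 when 1 library was left out. All genes called lower were then 961 to 1195 in E5.5 duct and 1397 to 1493 in E6.5 duct. Without E4.5-Ant library 1 the E4.5-Ant count of members lower at the adjusted p alone was 15. Voom with limma and DESeq2 also called 0 in E4.5-Ant.

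**Figure D2:**
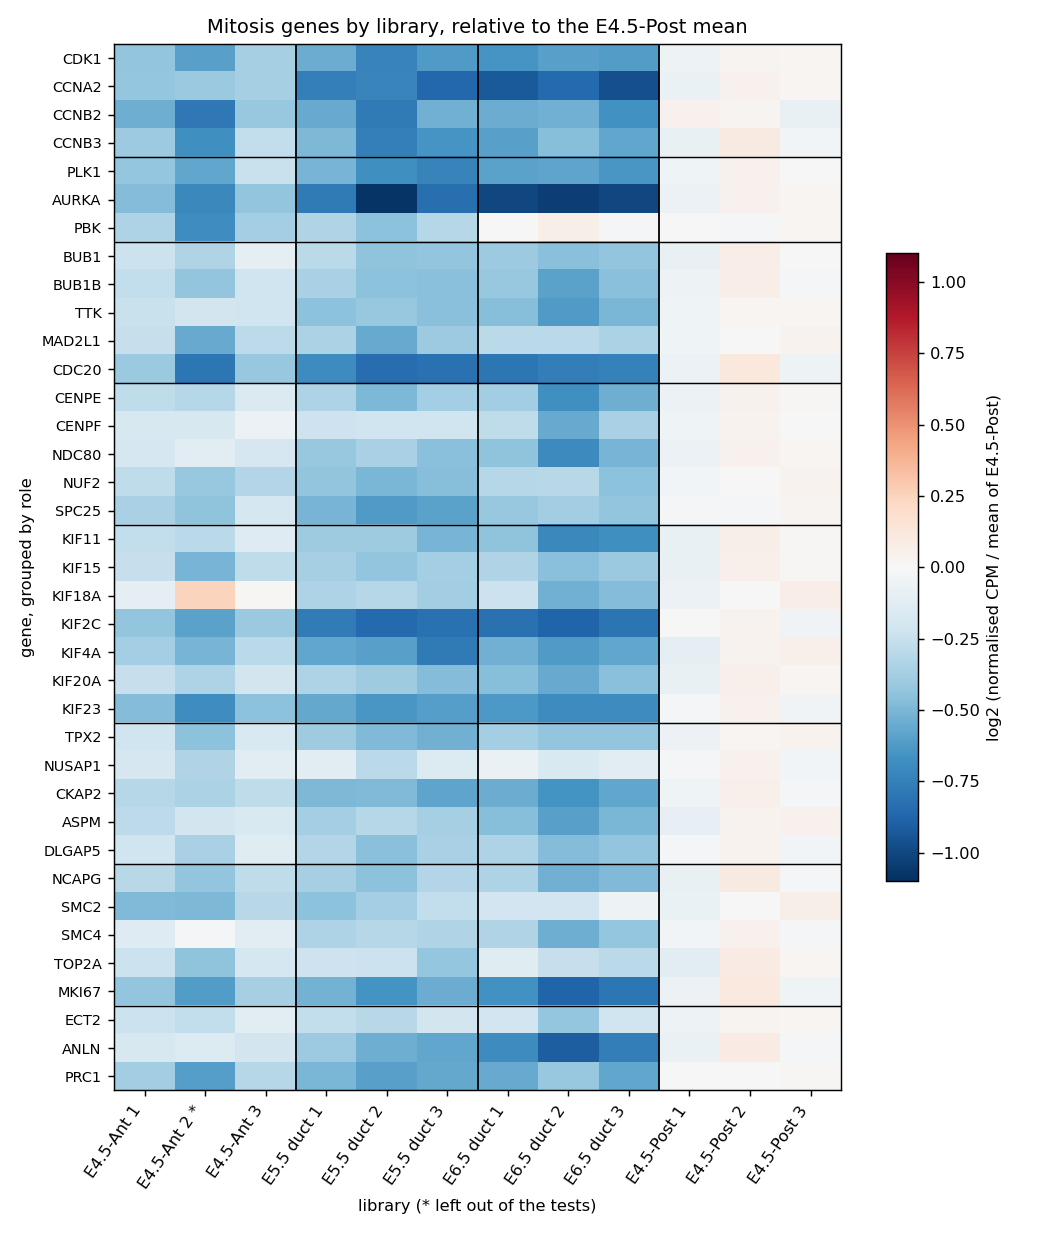
Log2 ratio of each gene's normalised CPM in each library (columns) to its mean in E4.5-Post (colour scale), for the 37 mitosis genes grouped by role (rows, black lines between roles). Black vertical lines part the tissues and the asterisk marks the library left out of the tests. The 3 E5.5 duct libraries are below the E4.5-Post mean for all 37 genes, and PBK, NUSAP1 and SMC2 are near it in E6.5 duct.

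Among the cyclins and their kinase, all 4 genes were called lower in E5.5 duct and 2 at E6.5, with medians of -0.62 and -0.58. All 4 were lower at the adjusted p alone in E4.5-Ant, with a median of -0.38. For this and the roles below, 6.26% and 8.78% of all genes were called lower in E5.5 and E6.5 duct relative to E4.5-Post, and 14.3% and 16.5% higher. At the adjusted p alone 14.8%, 26.5% and 28.2% of all genes were lower in E4.5-Ant, E5.5 duct and E6.5 duct. CDK1 (chromosome 6, 9409871 to 9417909, GRCg6a) is the kinase that drives entry into mitosis. CDK1 had 207 and 217 CPM in E4.5-Ant, 192, 168 and 182 CPM in E5.5 duct and 178, 185 and 183 CPM in E6.5 duct, against 269, 286 and 284 CPM in E4.5-Post. All libraries of the other tissues were below all E4.5-Post libraries, and the 2 ducts overlapped. The log2 fold change of CDK1 was -0.39 ± 0.06 (SE) in E4.5-Ant (adjusted p = 0.000295), -0.62 ± 0.05 in E5.5 duct (adjusted p = 4.52e-07) and -0.60 ± 0.05 in E6.5 duct (adjusted p = 3.88e-07). Between E6.5 and E5.5 duct it was 0.02 ± 0.05, which did not pass the test (adjusted p = 0.825).

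CCNA2 (chromosome 4, 53933632 to 53938773) encodes cyclin A2, which binds CDK2 in S phase and CDK1 in G2. CCNA2 had 93.2 and 97.6 CPM in E4.5-Ant, 74.5, 75.7 and 69.1 CPM in E5.5 duct and 66.3, 69.6 and 64.1 CPM in E6.5 duct, against 119, 129 and 128 CPM in E4.5-Post. The E4.5-Ant libraries lay between the ducts and the control without overlap. Relative to E4.5-Post it was lower by a log2 fold change of -0.76 ± 0.05 in E5.5 duct and -0.89 ± 0.05 at E6.5 (adjusted p = 4.55e-08 and 5.65e-09), and by -0.38 ± 0.06 in E4.5-Ant, under the fold limit. The B-type cyclins CCNB2 and CCNB3 were called lower in E5.5 duct, at -0.60 and -0.61, and stood at -0.55 and -0.52 in E6.5 duct, below the fold limit there.

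Of the mitotic kinases, AURKA and PLK1 were called lower in E5.5 duct, AURKA also in E6.5 duct, and PBK followed another course that is given further on. AURKA (chromosome 20, 12020659 to 12027226) encodes Aurora kinase A, which acts at centrosomes and in spindle assembly, and had the largest fitted decrease of the 37 in both ducts. AURKA had 86.5 and 89.2 CPM in E4.5-Ant, 70.1, 57.2 and 67.6 CPM in E5.5 duct and 60.1, 58.8 and 60.0 CPM in E6.5 duct, against 115, 124 and 122 CPM in E4.5-Post. No duct library reached E4.5-Ant, and none of E4.5-Ant reached the control. Relative to E4.5-Post it fell by 45.5% in E5.5 duct (log2 fold change -0.88 ± 0.07, adjusted p = 1.05e-07) and fell by 49.6% in E6.5 duct (-0.99 ± 0.07, adjusted p = 1.8e-08). In E5.5 duct relative to E4.5-Ant the log2 fold change was -0.43 ± 0.07 (adjusted p = 0.000468).

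PLK1 (chromosome 14, 7296538 to 7302070), Polo-like kinase 1, takes part in centrosome maturation, kinetochore function and cytokinesis. PLK1 had 164 and 185 CPM in E4.5-Ant, 154, 138 and 132 CPM in E5.5 duct and 146, 146 and 141 CPM in E6.5 duct, against 212, 226 and 219 CPM in E4.5-Post. The control libraries were the highest and both ducts lay below E4.5-Ant. It was called lower in E5.5 duct at -0.62 ± 0.06 (adjusted p = 1.48e-06), and at -0.58 ± 0.06 in E6.5 duct (adjusted p = 1.88e-06) it stood just under the fold limit.

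The 5 genes of the spindle checkpoint and of anaphase control were all lower at the adjusted p alone in both ducts, with medians of -0.42 in E5.5 duct and -0.46 at E6.5. Only CDC20 (chromosome 8, 20029193 to 20034550), which activates the anaphase-promoting complex and is held by the checkpoint, was called among them. CDC20 had 107 and 106 CPM in E4.5-Ant, 87.6, 79.1 and 80.0 CPM in E5.5 duct and 81.4, 83.4 and 84.2 CPM in E6.5 duct, against 135, 153 and 136 CPM in E4.5-Post. The ducts overlapped each other and lay below E4.5-Ant, which lay below the control. Relative to E4.5-Post the log2 fold change of CDC20 was -0.76 ± 0.06 in E5.5 duct and -0.74 ± 0.06 at E6.5 (adjusted p = 8.66e-08 and 6.43e-08). The checkpoint kinases BUB1, BUB1B and TTK and the checkpoint protein MAD2L1 ranged over -0.43 to -0.37 in E5.5 duct and -0.50 to -0.29 in E6.5 duct.

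None of the 5 kinetochore genes was called by edgeR in any comparison, though all 5 were lower at the adjusted p alone in each duct. With 3.05% to 8.78% of all genes called lower and 4.11% to 16.5% higher across the comparisons, 0 of 5 lies near those shares. NDC80, NUF2 and SPC25 are parts of the NDC80 complex, which binds microtubules, CENPE is a kinetochore motor and CENPF a large kinetochore protein. Their log2 fold changes relative to E4.5-Post ran over -0.56 to -0.21 in E5.5 duct and -0.52 to -0.33 in E6.5 duct. In E4.5-Ant only NUF2 and SPC25 passed the adjusted p, at -0.28 and -0.26.

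**Figure D3:**
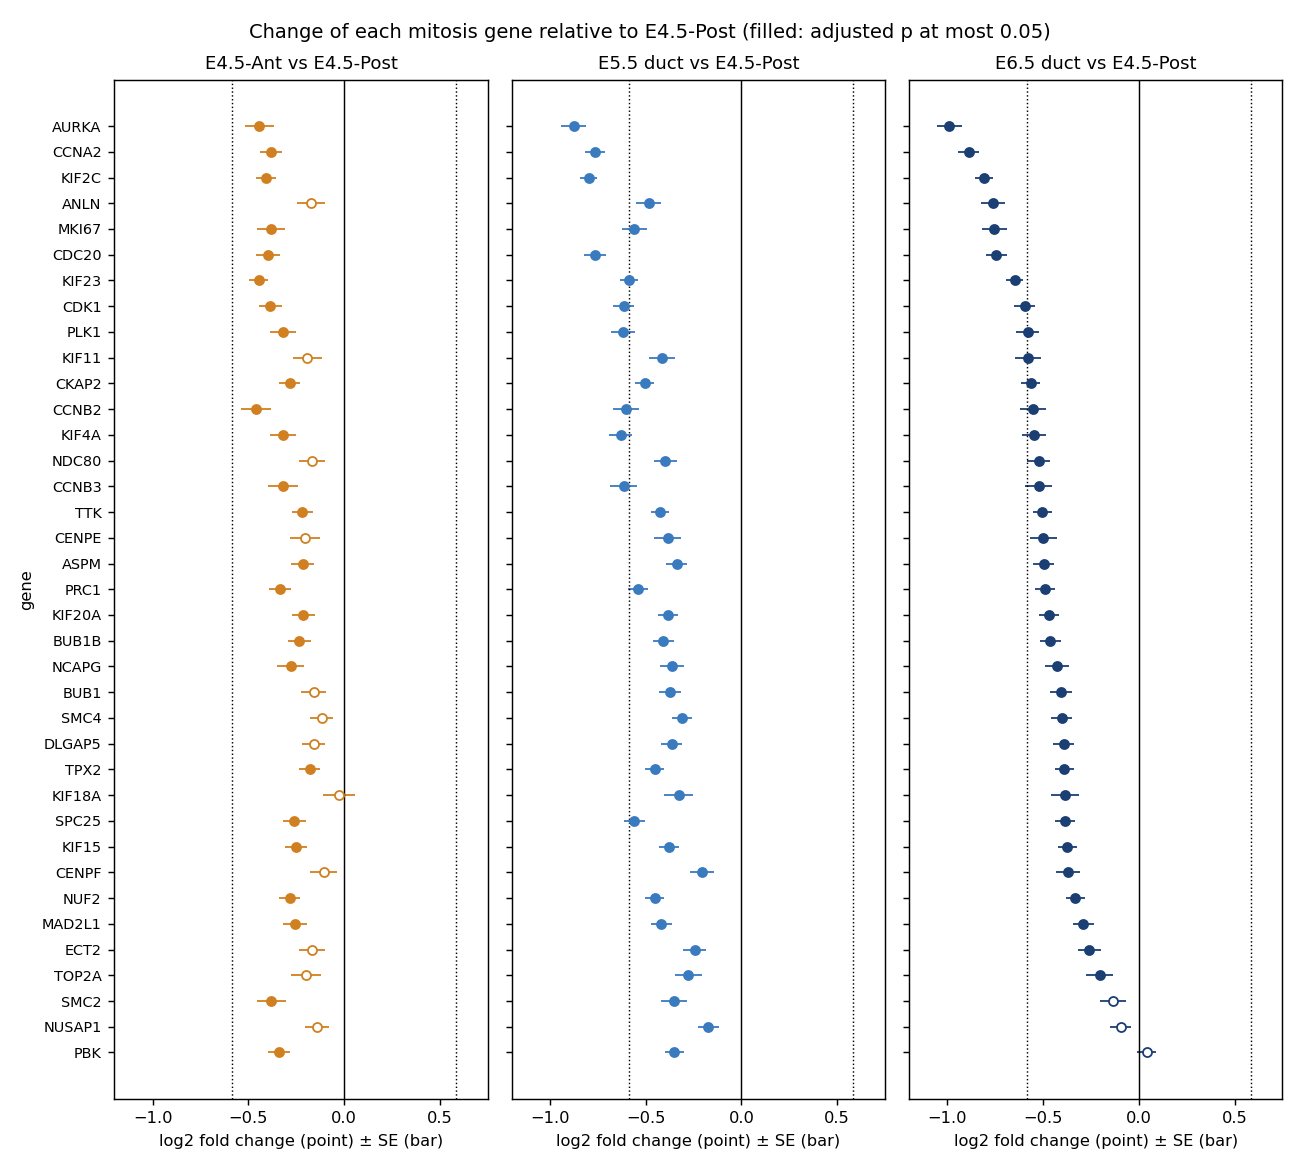
Log2 fold change of each of the 37 genes (rows, ordered by the E6.5 duct value) in E4.5-Ant, E5.5 duct and E6.5 duct relative to E4.5-Post (x axes), with points for the estimate, bars for its SE and dotted lines at a 1.5-fold change. Filled points have an adjusted p of at most 0.05. AURKA reaches -0.99 in E6.5 duct and PBK sits at 0.04.

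Of the 7 kinesin motors, KIF2C, KIF4A and KIF23 were called lower in E5.5 duct and KIF2C and KIF23 in E6.5 duct, and all 7 were lower at the adjusted p alone in both. KIF2C (chromosome 8, 21097698 to 21113513) encodes a kinesin that takes microtubule ends apart at centromeres. KIF2C had 82.8 and 84.1 CPM in E4.5-Ant, 65.7, 61.9 and 63.3 CPM in E5.5 duct and 63.4, 60.7 and 64.1 CPM in E6.5 duct, against 112, 115 and 109 CPM in E4.5-Post. The libraries of each tissue were close together, with E4.5-Ant apart from both the ducts and the control. KIF2C had a log2 fold change of -0.41 ± 0.05 in E4.5-Ant (adjusted p = 4.74e-05), -0.80 ± 0.05 in E5.5 duct (adjusted p = 1.02e-08) and -0.81 ± 0.05 in E6.5 duct (adjusted p = 3.98e-09). KIF23, a motor of the central spindle, stood at -0.45 in E4.5-Ant, -0.59 in E5.5 duct and -0.65 at E6.5, and KIF4A, a chromosome-bound motor, at -0.32, -0.63 and -0.55. KIF11, the motor that pushes spindle poles apart, KIF15, which shares that task, and KIF20A, a motor of the central spindle, ranged over -0.41 to -0.38 in E5.5 duct and -0.58 to -0.37 in E6.5 duct.

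KIF18A, which dampens chromosome movements at the spindle equator, was close to the control in E4.5-Ant and is named after its values were seen. KIF18A had 39.9 and 42.9 CPM in E4.5-Ant, 33.7, 34.3 and 32.7 CPM in E5.5 duct and 36.1, 29.4 and 30.5 CPM in E6.5 duct, against 40.6, 42.4 and 44.7 CPM in E4.5-Post. E4.5-Ant overlapped the control while both ducts lay below it. The log2 fold change was -0.03 ± 0.08 in E4.5-Ant (adjusted p = 0.834), -0.33 ± 0.07 in E5.5 duct (adjusted p = 0.00199) and -0.39 ± 0.08 in E6.5 duct (adjusted p = 0.000511).

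The 5 spindle assembly and microtubule-binding genes had no call in any comparison. For 5 genes this too lies near the shares of all genes called, 3.05% to 8.78% lower and 4.11% to 16.5% higher. TPX2, which activates Aurora A on the spindle, CKAP2, a microtubule-stabilising protein, ASPM, a spindle pole protein, and DLGAP5, a bundler of kinetochore fibres, were lower at the adjusted p alone in both ducts, over -0.51 to -0.34 in E5.5 duct and -0.56 to -0.39 in E6.5 duct. NUSAP1, which binds microtubules near chromatin, stood apart, and was named after its values were seen. It had 77.9 and 81.4 CPM in E4.5-Ant, 81.4, 72.0 and 80.1 CPM in E5.5 duct and 84.4, 78.7 and 82.0 CPM in E6.5 duct, against 87.4, 91.5 and 87.1 CPM in E4.5-Post. Every E4.5-Post library was above every other library, by a small margin. Its log2 fold change passed the adjusted p in E5.5 duct (-0.17 ± 0.05, adjusted p = 0.0155) and did not in E6.5 duct (-0.09 ± 0.05, adjusted p = 0.156) or E4.5-Ant (-0.14 ± 0.06, adjusted p = 0.101).

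The 5 genes of chromosome structure were spread widely. MKI67 (chromosome 6, 34315797 to 34340213) encodes Ki-67, the coat of mitotic chromosomes and the usual proliferation antigen. MKI67 had 266 and 278 CPM in E4.5-Ant, 249.6, 227 and 245 CPM in E5.5 duct and 225, 195 and 206 CPM in E6.5 duct, against 342, 386 and 345 CPM in E4.5-Post. All control libraries were above the rest, and every E6.5 duct library was below every E5.5 duct library. It was called lower in E6.5 duct at -0.75 ± 0.07 (adjusted p = 2.68e-07), and stood at -0.56 ± 0.07 in E5.5 duct (adjusted p = 6.85e-06), under the fold limit, and at -0.38 ± 0.07 in E4.5-Ant (adjusted p = 0.00142).

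TOP2A (chromosome 27, 7235584 to 7253285) encodes topoisomerase II alpha, which untangles sister chromatids. TOP2A had 532 and 549 CPM in E4.5-Ant, 535, 532 and 467 CPM in E5.5 duct and 571, 525 and 510.0 CPM in E6.5 duct, against 576, 668 and 636 CPM in E4.5-Post. The control libraries were the highest, but E6.5 duct library 1 came close to the lowest of them. The log2 fold change was -0.20 ± 0.08 in E4.5-Ant (adjusted p = 0.0704), -0.28 ± 0.07 in E5.5 duct (adjusted p = 0.00379) and -0.20 ± 0.07 in E6.5 duct (adjusted p = 0.0216). Of the condensin genes, NCAPG and SMC4 were lower at the adjusted p alone in both ducts, at -0.36 and -0.31 in E5.5 duct and at -0.43 and -0.40 in E6.5 duct. TOP2A, MKI67, ASPM, TTK and SMC4 each overlap another annotated gene on the same strand, so reads in the shared stretch may be missing from their counts.

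Among the 3 cytokinesis genes, ANLN (chromosome 2, 46673591 to 46702559) was called lower in E6.5 duct. ANLN encodes anillin, a scaffold of actin and myosin at the cleavage furrow. ANLN had 130.1 and 128 CPM in E4.5-Ant, 111, 101 and 98.8 CPM in E5.5 duct and 90.6, 78.1 and 86.4 CPM in E6.5 duct, against 139, 156 and 144 CPM in E4.5-Post. The 4 tissues did not overlap one another, and E6.5 duct was lowest. Relative to E4.5-Post the log2 fold change was -0.17 ± 0.07 in E4.5-Ant (adjusted p = 0.0851), -0.49 ± 0.06 in E5.5 duct (adjusted p = 2e-05) and -0.76 ± 0.06 in E6.5 duct (adjusted p = 1.93e-07). PRC1, which bundles microtubules of the central spindle, stood at -0.54 and -0.49 in E5.5 and E6.5 duct, and ECT2, the exchange factor that activates RhoA at the furrow, at -0.24 and -0.26.

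**Figure D4:**
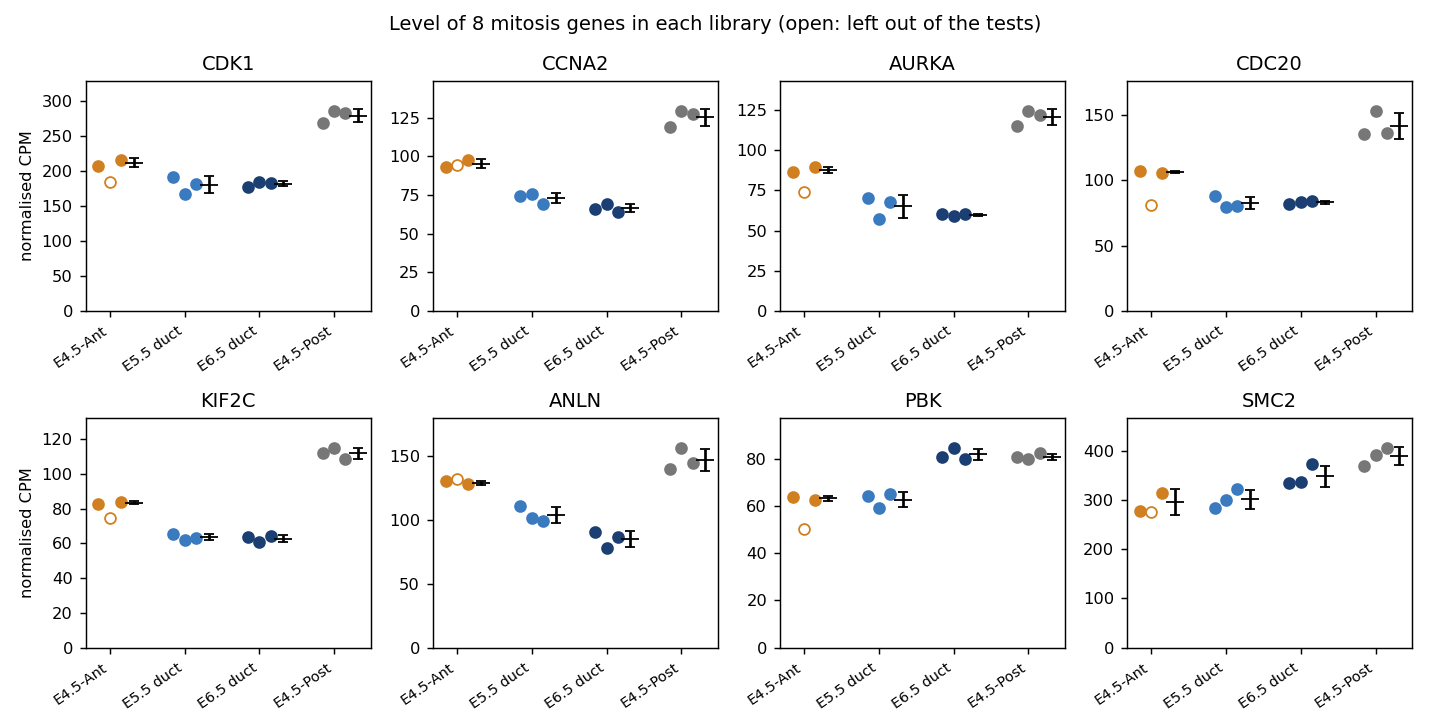
Normalised CPM (y axes, from 0) of 8 mitosis genes in each library of the 4 tissues (x axes), with open points for the library left out of the tests and black bars for the mean and SD of the others. AURKA, CCNA2, KIF2C, CDC20 and CDK1 are highest in E4.5-Post, ANLN is lowest in E6.5 duct, and PBK is at 79.9 to 84.6 CPM in E6.5 duct beside 79.7 to 82.2 CPM in E4.5-Post.

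The duct stages were then each compared with the tissue of the day before. E4.5-Ant is not duct alone, so in the first of these comparisons age and tissue again cannot be told apart. In E5.5 duct relative to E4.5-Ant, edgeR, voom and DESeq2 each called 0 of the 37 (all genes 7.8% higher and 5.22% lower), and 24 were lower and 0 higher at the adjusted p alone (all genes 14.5% lower and 16% higher), with 28 lower and 0 higher at an unadjusted p of 0.05 (all genes 19.6% lower and 20.9% higher). The median log2 fold change was -0.20, beside 0.00 over all genes, and AURKA, KIF2C, CCNA2 and CDC20 again had the lowest estimates, at -0.43, -0.39, -0.38 and -0.37. This comparison rests on 2 E4.5-Ant libraries: without library 3 the count at the adjusted p alone was 7, and with the left-out library put back it was 11.

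Between E6.5 and E5.5 duct the mitosis genes moved little as a group. Again 0 were called by edgeR, voom or DESeq2 (all genes 4.11% higher and 3.45% lower), the median log2 fold change was -0.03, beside 0.01 over all genes, and 16 estimates were positive and 21 negative. At the adjusted p alone PBK, SMC2 and SPC25 were higher and ANLN, MKI67 and ASPM lower, 3 each way, where 14.5% of all genes were higher and 13.5% lower, and at an unadjusted p of 0.05 it was 5 higher and 6 lower, beside 20.2% and 19.5% of all genes. These small counts moved with single libraries, to 1 higher without E5.5 duct library 2, to 6 lower without E6.5 duct library 1, and to 1 lower without E4.5-Ant library 1, E5.5 duct library 1 or 3, or E6.5 duct library 2 or 3. ANLN was at 90.6, 78.1 and 86.4 CPM in E6.5 duct, against 111, 101 and 98.8 CPM in E5.5 duct, a log2 fold change of -0.28 ± 0.06 (adjusted p = 0.00615). MKI67 stood at -0.19 ± 0.07 (adjusted p = 0.0399) and ASPM at -0.16 ± 0.05 (adjusted p = 0.044).

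PBK (chromosome 3, 105111777 to 105120100), a kinase that CDK1 and cyclin B activate in mitosis, was the member least like the others, and was named after its values were seen. PBK had 63.9 and 62.4 CPM in E4.5-Ant, 64.1, 59.1 and 64.9 CPM in E5.5 duct and 80.8, 84.6 and 79.9 CPM in E6.5 duct, against 80.5, 79.7 and 82.2 CPM in E4.5-Post. E6.5 duct overlapped the control, and E4.5-Ant and E5.5 duct lay together below both. Its log2 fold change relative to E4.5-Post was -0.34 ± 0.06 in E4.5-Ant (adjusted p = 0.000444), -0.35 ± 0.05 in E5.5 duct (adjusted p = 4.03e-05) and 0.04 ± 0.05 in E6.5 duct (adjusted p = 0.49). In E6.5 duct relative to E5.5 duct it rose by 0.39 ± 0.05 on the log2 scale (adjusted p = 0.00011), below the fold limit.

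SMC2 (66668712 to 66692579 on chromosome Z), the core ATPase of condensin beside SMC4, was also named after its values were seen. SMC2 had 277 and 315 CPM in E4.5-Ant, 284, 300.0 and 322 CPM in E5.5 duct and 335, 337 and 373 CPM in E6.5 duct, against 369.7, 390.5 and 406 CPM in E4.5-Post. E4.5-Ant had the lowest mean but overlapped E5.5 duct, and E6.5 duct reached into the range of the control. Its log2 fold change relative to E4.5-Post was -0.38 ± 0.08 in E4.5-Ant, -0.35 ± 0.07 in E5.5 duct and -0.13 ± 0.07 at E6.5 (adjusted p = 0.00199, 0.000573 and 0.104), and in E6.5 duct relative to E5.5 duct it was 0.22 ± 0.07 (adjusted p = 0.0284). SMC2 is the only one of the 37 on a sex chromosome, and male birds carry a second Z in place of the W. The 73 W-linked genes, carried by females only, summed to 1680, 1207 and 947 CPM in E6.5 duct libraries 1 to 3, against 1803, 1406 and 1376 CPM in E5.5 duct, so the pools differed in W-linked signal, and the SMC2 values of both tissues ran the opposite way, as did those of E4.5-Ant (1820 and 1375 CPM of W-linked signal). They did not in E4.5-Post, at 1392, 1649 and 1135 CPM. The 759 Z-linked genes tested had a median log2 fold change of -0.04 between the same tissues. The part of pool composition in the SMC2 values was not tested.

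Most pairs of the genes varied alike over the libraries, and less so within tissues. Over the 11 libraries the correlation of log2 CPM between 2 members had a median of 0.91 over 666 pairs, ranging over -0.12 to 0.99, with 3 pairs below 0. Tissue differences and library size scaling are shared by all points, and after subtraction of the group means the median was 0.44, ranging over -0.68 to 0.98, with 104 pairs below 0. Each member's median correlation with the others was lowest for PBK at 0.28, SMC2 at 0.55, NUSAP1 at 0.73 and TOP2A at 0.79, and highest for CKAP2 at 0.96. Correlations of other gene pairs were not computed, so whether the members vary together more than other genes cannot be said.

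Further cell cycle genes outside the 37 were read as lists of related function. Of 61 other mitosis genes, 30 were lower at the adjusted p alone in E4.5-Ant, 52 in E5.5 duct and 46 at E6.5 relative to E4.5-Post, and 1 was higher in each, with medians of -0.19, -0.40 and -0.34. Among all genes 14.8%, 26.5% and 28.2% were lower at the adjusted p alone, and 14.2%, 27.3% and 29.7% higher. With the fold limit 11 of the 61 were called lower and 1 higher in E5.5 duct (all genes 6.26% and 14.3%). In E6.5 duct 8 were called lower (all genes 8.78%). UBE2C, the ubiquitin-conjugating enzyme of the anaphase-promoting complex, was lower in E5.5 duct at -0.91 ± 0.10 (29.1 to 35.1 CPM, against 54.4 to 67.0 CPM in E4.5-Post), and CDCA3, a trigger of mitotic entry, at -0.76 ± 0.08. SGO2, which guards centromeric cohesin, was the one called higher, at 0.64 ± 0.07 (25.7 to 27.6 CPM in E5.5 duct, against 17.2 to 17.9 CPM). In E6.5 duct the centrosome kinase NEK2 stood at -0.76 ± 0.06 and BIRC5, the survivin subunit of the Aurora B complex, at -0.75 ± 0.08. Between E6.5 and E5.5 duct this list had 11 higher and 2 lower at the adjusted p alone (all genes 14.5% and 13.5%).

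Replication genes were lower in the same tissues but part of them stood higher again at E6.5. Of 43 genes of DNA replication, 27 were lower at the adjusted p alone in E4.5-Ant, 33 in E5.5 duct and 29 at E6.5 relative to E4.5-Post, with medians of -0.26, -0.39 and -0.21. Among all genes 14.8%, 26.5% and 28.2% were lower at the adjusted p alone in these 3 comparisons. RRM2, a subunit of ribonucleotide reductase, which makes deoxynucleotides, was called in all 3. RRM2 was at 223 CPM in both E4.5-Ant libraries, 171 to 199 CPM in E5.5 duct and 183 to 189.8 CPM in E6.5 duct, against 391 to 399 CPM in E4.5-Post, with log2 fold changes of -0.81 ± 0.06, -1.11 ± 0.06 and -1.06 ± 0.06. The flap endonuclease FEN1 was called lower in E5.5 duct at -0.62. In E6.5 duct relative to E5.5 duct the median of the 43 was 0.10. At the adjusted p alone 15 of them were higher and 1 lower (all genes 14.5% and 13.5%). The replication licensing factor CDC6 was called among them, at 11.2 to 14.1 CPM in E6.5 duct, against 6.51 to 8.09 CPM in E5.5 duct (0.76 ± 0.15, adjusted p = 0.0019).

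Of all genes 14.8%, 26.5% and 28.2% were lower at the adjusted p alone in E4.5-Ant, E5.5 duct and E6.5 duct relative to E4.5-Post. Beside these shares, 6, 13 and 10 of the 19 tested genes of G1/S control were lower. The called ones included E2F8, an atypical repressor of the E2F family, at -0.84 ± 0.06 in E5.5 duct and -0.74 ± 0.06 at E6.5, and cyclin E2 (CCNE2) at -0.60 ± 0.09 in E6.5 duct. In E6.5 duct relative to E5.5 duct the median of the G1/S genes was 0.07. At the adjusted p alone 6 of the 19 were higher there and 1 lower (all genes 14.5% and 13.5%). None of the 11 transcription regulators of mitotic genes was called in the 3 comparisons with E4.5-Post. In these, 3.05%, 6.26% and 8.78% of all genes were called lower and 7.7%, 14.3% and 16.5% higher. At the adjusted p alone 2, 4 and 4 of them were lower, not far above the shares of all genes. FOXM1, the factor known in mammals to activate G2/M genes, is named after its values were seen, and was at 77.4 and 82.6 CPM in E4.5-Ant, 76.6 to 77.7 CPM in E5.5 duct and 75.7 to 83.9 CPM in E6.5 duct, against 75.7 to 77.3 CPM in E4.5-Post. Its log2 fold change was between 0.03 and 0.08 in the 3 comparisons with E4.5-Post and passed the test in none. MYBL2, its partner in that role, was lower at the adjusted p alone in each, at -0.22, -0.42 and -0.29. Of 10 cohesin genes, 2, 6 and 7 were lower at the adjusted p alone, while SMC1A, a core subunit, was called higher in E6.5 duct at 0.59 ± 0.12.

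The 12 tested CDK inhibitors and antiproliferative genes did not move as one, with 3, 5 and 4 higher and 2, 2 and 2 lower at the adjusted p alone. Among all genes 14.2%, 27.3% and 29.7% were higher and 14.8%, 26.5% and 28.2% lower in the same comparisons with E4.5-Post. CDKN1C, which encodes the CDK inhibitor p57 and limits proliferation in developing organs, was called higher in each comparison with E4.5-Post. CDKN1C was at 16.6 and 21.1 CPM in E4.5-Ant, 29.2 to 33.3 CPM in E5.5 duct and 33.3 to 42.0 CPM in E6.5 duct, against 10.4 to 13.2 CPM in E4.5-Post. No library of the other tissues overlapped the control. Its log2 fold changes were 0.73 ± 0.13, 1.44 ± 0.12 and 1.74 ± 0.12, and it was also called in E5.5 duct relative to E4.5-Ant, at 0.71 ± 0.13 (adjusted p = 0.00073). TOB1, an antiproliferative protein of the BTG family, was called lower, at -0.64 ± 0.08 in E5.5 duct and -0.60 ± 0.08 at E6.5.

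**Figure D5:**
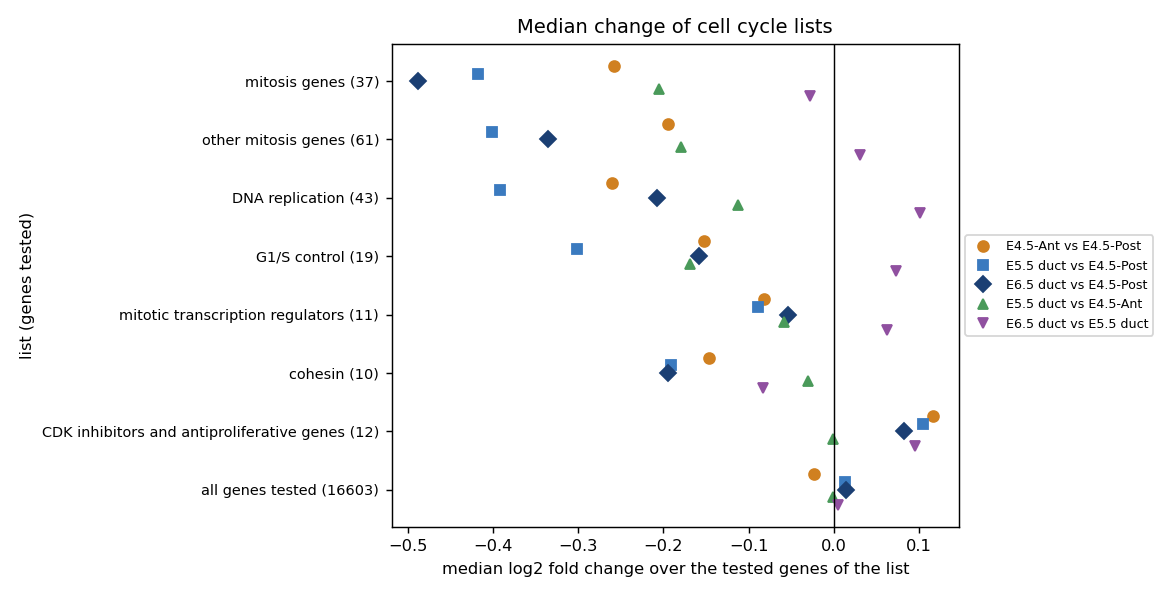
Median log2 fold change (x axis) of the mitosis genes, of 6 further cell cycle lists and of all genes tested (rows, with the number of genes tested), with 1 symbol for each comparison. The mitosis genes lie at -0.49 and -0.42 for E6.5 duct and E5.5 duct relative to E4.5-Post, where the median of all genes is at 0.01, and DNA replication genes lie at 0.10 for E6.5 duct relative to E5.5 duct.

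Markers of several cell types in these dissections differed between the same tissues. Of all genes 7.7%, 14.3% and 16.5% were called higher in E4.5-Ant, E5.5 duct and E6.5 duct relative to E4.5-Post, and 3.05%, 6.26% and 8.78% lower. In E6.5 duct relative to E4.5-Post, 8 of 9 duct mesenchyme markers and 8 of 11 Müllerian duct and coelomic epithelium markers were called higher and 1 of the second list lower, and 7 of 11 tested nephron markers lower, 1 of them higher. The 14 red blood cell markers summed to 983 to 1118 CPM in E6.5 duct and 735 to 1075 CPM in E5.5 duct, against 2306 to 2925 CPM in E4.5-Post, with 6 and 9 called lower and 3 and 3 higher. In E4.5-Ant red blood cell markers were at 2270 and 2544 CPM with 0 called, nephron markers at 2580 and 2888 CPM with 2 of 11 lower, and duct mesenchyme markers at 2286 and 2437 CPM with 3 of 9 higher and 1 lower, while duct and coelomic epithelium markers were at 643 and 651 CPM, against 861 to 918 CPM in E4.5-Post, with 3 of 11 higher and 4 lower. Endothelial markers summed to 977 and 1103 CPM in E4.5-Ant, 756 to 805 CPM in E5.5 duct and 652 to 689 CPM in E6.5 duct, against 828 to 897 CPM in E4.5-Post, and of 9 the number called was 1 higher in E4.5-Ant, 1 higher and 2 lower in E5.5 duct, and 1 higher and 4 lower in E6.5 duct. Neuronal and neural crest markers reached 588 to 629 CPM in E6.5 duct, against 283 to 336 CPM in E4.5-Post, with 5 of 12 called higher and 1 lower, and in E5.5 duct 4 were called higher and 1 lower. Of 8 macrophage markers 5 were called higher in E4.5-Ant, at 76.8 and 83.4 CPM in sum, against 49.0 to 52.9 CPM in E4.5-Post. Macrophage sums of the ducts were also above the control, at 60.8 to 72.6 CPM in E5.5 duct and 69.7 to 75.8 CPM in E6.5 duct. There 1 and 2 of the 8 were called higher and 0 lower. Of 11 skeletal muscle markers 8 were called lower in E6.5 duct, at 48.7 to 53.3 CPM in sum, against 58.7 to 97.0 CPM in E4.5-Post. In E4.5-Ant 4 of them were called lower and 1 higher. In E5.5 duct 2 were called higher and 0 lower, at 69.0 to 107 CPM in sum, with the highest in library 2. In E6.5 duct relative to E5.5 duct 9 were called lower and 0 higher (all genes 3.45% and 4.11%). Germ cell markers summed to 23.9 to 24.8 CPM in E5.5 duct and 24.7 to 26.4 CPM in E6.5 duct. They were at 19.7 and 22.1 CPM in E4.5-Ant, against 19.5 to 20.5 CPM in E4.5-Post. Of the 6 tested, 1 was called higher in E4.5-Ant and 0 lower. In E5.5 duct 1 was called higher and 2 lower, and in E6.5 duct 2 higher and 1 lower. Among all markers UMOD and AQP2 of the nephron, HOXA11 and HOXA13 of the duct, NANOG of germ cells and MYF5 of muscle had 0 reads in at least 1 library. The part of these cell types in the mitosis gene values was not tested.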

How the data were processed

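RNA was sequenced from 12 libraries, 3 for each of 4 tissues, in a single lane. The authors aligned reads with STAR in the RNAsik pipeline and deposited raw counts per gene made with featureCounts 1.6.2 on GRCg6a with RefSeq annotation, by strand and over whole genes with introns, and marked duplicates were kept. Each library is a pool of embryos, so p-values measure the spread between pools. Symbols were matched to chromosomes through 18401 names shared with RefSeq's GRCg7b table. No promoter or protein sequence was used here, and the planned promoter motif search was not made.

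Counts were tested in R 4.3.3 with edgeR 4.0.16 (quasi-likelihood, TMM, filterByExpr, all 4 tissues in 1 fit) over the 11 libraries with under 10% of reads on ribosomal RNA genes, and the study also left out 1 E4.5-Ant library. A call needed an adjusted p of at most 0.05 and a fold change of at least 1.5. Each SE was worked back from the test, as the absolute log2 fold change divided by the square root of the quasi-likelihood F statistic. The code was tested on simulated data. Alternatives were voom (limma 3.58.1), DESeq2 1.42.0, other scalings, filters, limits and libraries, and a replicate block. CPM were scaled by TMM over 12 libraries.

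The members and lists were chosen with earlier results of these data known. Given in full were up to 4 called members of largest log2 fold change per direction and comparison, with CDK1, MKI67, TOP2A and PLK1, and up to 2 called genes per list, direction and comparison. 1 gene of the lists is not reported here. Others are said to be named after their values were seen.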

Additional observations from a re-analysis of the deposited data

How the results depend on the processing

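Of the values of the 13 members given library by library, 65 in all, 9 changed sign under some alternative, each time near 0. PBK in E5.5 duct relative to E4.5-Ant was 0.088 with all 12 libraries and 0.00050 with the block for E4.5 alone, NUSAP1 was 0.022 with all 12 libraries, and SMC2 was -0.0064 with library size scaling. KIF18A in E4.5-Ant relative to E4.5-Post was 0.0020 with library size scaling and 0.058 with all 12 libraries. Leaving out 1 library gave PBK -0.056 to 0.031, SMC2 -0.058 to 0.12 and NUSAP1 -0.094 to 0.023 in E5.5 duct relative to E4.5-Ant, KIF18A -0.080 to 0.022 in E4.5-Ant relative to E4.5-Post, and in E6.5 duct relative to E5.5 duct KIF2C -0.032 to 0.014, CDC20 -0.0073 to 0.071, CDK1 -0.031 to 0.066, KIF18A -0.16 to 0.00065 and PLK1 -0.0047 to 0.11. The threshold moved the counts most. With no fold limit the members lower were 25 (E4.5-Ant), 37 (E5.5 duct) and 34 (E6.5 duct) relative to E4.5-Post, 24 in E5.5 duct relative to E4.5-Ant, and 3, with 3 higher, in E6.5 duct relative to E5.5 duct, and all genes higher and lower were 2360 and 2450, 4537 and 4407, 4933 and 4688, 2655 and 2402, and 2410 and 2249 in the same order. Tested against the fold limit itself, E5.5 duct gave 4 members and E6.5 duct 6, and all genes gave 500 and 115, 1240 and 435, 1638 and 788, 591 and 358, and 106 and 114. With all 12 libraries the median of the members was -0.33 in E4.5-Ant and -0.15 in E5.5 duct relative to E4.5-Ant, and the counts at the adjusted p alone, an alternative chosen after seeing the data, were 11 lower in the second of these and 1 higher and 1 lower in E6.5 duct relative to E5.5 duct. With only the compared tissues fitted that last pair was also 1 and 1, and with a replicate block the lower count was 1. Leaving out 1 library gave 6 to 12 members called lower in E5.5 duct and 7 to 12 in E6.5 duct. All genes called lower were then 961 to 1195 and 1397 to 1493. The E6.5 duct median of the members was then -0.51 to -0.44. At the adjusted p alone the members lower were 15 to 28 in E4.5-Ant and 7 to 27 in E5.5 duct relative to E4.5-Ant. In E6.5 duct relative to E5.5 duct these counts were 1 to 3 higher and 1 to 6 lower. The deviations of same-numbered libraries from their group means correlated at -0.21 to 0.13 over 15 pairs. These libraries were not treated as pairs, and the block left 10 and 8 members called in the ducts. The E4.5 tissues share their embryos, but not by any stated number, and their same-numbered libraries correlated at 0.05 and 0.08. The numbers are not stated to mark shared embryos, so these correlations cannot show whether that pairing matters. With a replicate block for the E4.5 tissues only, chosen after seeing the data, 21 members were lower in E4.5-Ant and 23 in E5.5 duct relative to E4.5-Ant at the adjusted p alone, and 10 and 8 were still the numbers called in the ducts. The causes were not tested. The window alternative of the promoter search was not run, since no promoter sequence was used. E4.5-Ant rests on 2 libraries, and groups of 3 were not tested for outliers.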
